A study of Pistacia vera with 121 samples.

Results

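A set of 150 genes that reached their highest kernel level late in development was described in the pistachio cultivar Kerman. The genes were selected on CPM, a gene's counts per 1000000 counts in PvKer-named genes, averaged over the libraries of each tissue and sampling point. A gene qualified if its highest kernel mean fell at 2284 or 2377 growing degree days (°C), the heat accumulated over the season, lay from 20 to below 2000 CPM, and was at least 5 times every hull and every shell mean. Of 37063 PvKer genes, 172 met these conditions, and the 150 with the highest kernel maximum were kept. The maximum lay at 2284 in 64 of them and at 2377 in 86. These values chose the genes, so the late kernel maximum and the excess over hull and shell are given below as description, with no test.

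All samples were untreated fruit of the same cultivar, separated into the hull, which is the soft outer wall, the shell, which is the hardened endocarp, and the seed, here called the kernel. RNA was sequenced in 121 libraries in 38 groups of a tissue at a sampling point, with 47 hull, 35 shell and 39 kernel libraries. The selection used 107 of them: 29 kernel libraries at 10 points from 1223 to 2377, 44 hull libraries at 15 points from 865 to 2564 and 34 shell libraries at 11 points from 865 to 2139. The labels do not say whether the libraries of a group came from separate trees. P-values therefore weigh a difference against the spread between these libraries only, and the unit of replication is unknown. Each library is bulk tissue, in which fewer cells of a type and less RNA per cell cannot be told apart.

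A seed first builds its embryo and then fills with reserves such as oil and storage protein, and in its last phase it stops growing, loses water and becomes able to survive drying. In well studied seeds this last phase brings transcripts for protective proteins of the late embryogenesis abundant class, for oil body proteins and for small heat shock proteins, under control of the hormone abscisic acid and a small network of transcription factors. Whether the 150 genes belong to such classes is not known here. Their identifiers matched none of the 42351 genes of the RefSeq table used for names, so they are given by identifier only, no role is assigned to any of them, and the word maturation refers to the time of their maximum.

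Some libraries stood apart, and 14 of the 121 were left out of the selection. They included the 3 kernel libraries labelled 2475 (K45, K47 and K48) and K38.2 (labelled 2284) and K44 (labelled 2377), in which contig-named features took 69.4% to 87.1% of the counts and 202455 to 631221 PvKer counts remained. They also included K6, K7 and K8, which are labelled kernel 2564 but in which the 150 genes had a median of 14.9% of their maximum, close to the 13.4% at kernel 1223. K23 (labelled kernel 1759) and K32 (labelled kernel 2139) had the 150 genes at a summed 0.752% and 1.13%, below the libraries used from the same groups. In the comparisons other than that of the libraries labelled 2475 and 2564, a library held at least 850623 PvKer counts. That library was K34 (kernel 2139), with 58.1% of its counts in contig-named features.

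In the late kernel the 150 genes together took 5.34% ± 0.261 (SD, n = 3) of the PvKer counts at 2284 and 5.08% ± 0.334 (n = 2) at 2377. The 3 libraries at 2284 had 5.07%, 5.36% and 5.60%, and the 2 libraries at 2377 had 4.85% and 5.32%. The youngest kernel libraries, at 1223, had 0.989%, 1.01% and 1.06%. No hull library exceeded 0.222%, and no shell library exceeded 0.444%. All 5 libraries at 2284 and 2377 lay above every hull and shell library used, a difference that the selection itself required of the group means.

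**Figure D1:**
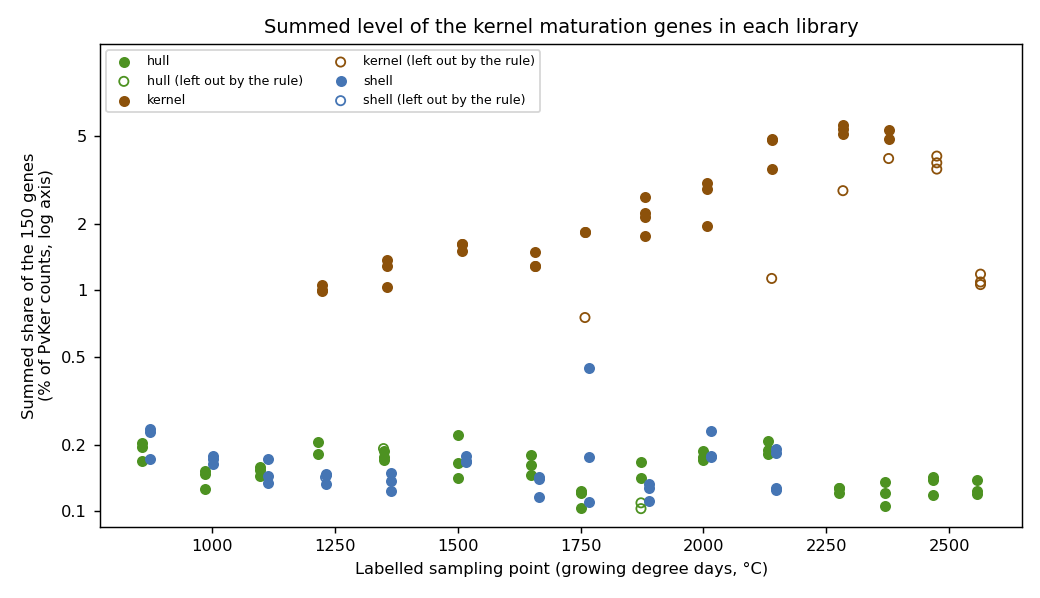
Summed share of the 150 genes in the PvKer counts of each library (y axis, %, log scale) against the labelled sampling point in growing degree days (x axis, °C), with hull and shell points shifted sideways for legibility. Filled points were used to select the genes and open points were left out; kernel libraries rise from about 1% at 1223 to 5.60% at 2284, whereas no hull or shell library exceeds 0.444%.

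The levels spanned a wide range. The highest kernel mean of a gene ranged from 34 to 1968 CPM with a median of 215 CPM. It was at least 1000 CPM in 18 genes, from 100 to below 1000 CPM in 90 and under 100 CPM in 42. The 10 genes with the highest maxima took 28% of the summed maxima. CPM is not divided by gene length, so the order of genes is one of read share and not of transcript number. Among the replicates at 2284 the coefficient of variation of a gene had a median of 20.6% (n = 3) and reached 55.8%. At 2377 the median was 13.9% (n = 2) and the highest value 73.9%.

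The limits of the selection cut through a continuum. The last genes inside the cut at 150 were PvKer.06.g150360 with 35.2 CPM and PvKer.06.g162690 with 34 CPM at their maximum. The first outside it were PvKer.15.g362740 with 32.9 CPM and PvKer.02.g039650 with 32.2 CPM. The ratio to the highest hull or shell mean was 5.04 in PvKer.03.g070120, just inside, and 4.95 in PvKer.01.g034170, just outside. A further 23 genes met all other conditions at 2000 CPM or more, the lowest of them PvKer.01.g033490 with 2032 CPM at 2377. The set is 1.63% of the 9190 genes with a kernel maximum of at least 20 CPM.

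The genes with the highest kernel means had unlike courses. PvKer.04.g109480 had 1918, 2000 and 1986 CPM in the 3 libraries at 2284, but it was already at 1595, 1600 and 2118 CPM at 1508 and had 202, 298 and 342 CPM at 1223. Its maximum at 2284 thus ended a long plateau, interrupted at 2007 by 924, 1000 and 1206 CPM. PvKer.02.g044610 had 1790 and 1993 CPM at 2377 and 1623, 1698 and 2178 CPM at 2284. It was lower at 1657, with 306, 309 and 344 CPM, than at 1223, with 535, 578 and 688 CPM. For PvKer.02.g044610 the libraries at 1657 and 1223 did not overlap in plain CPM, whose dependence on the most abundant genes is described below.

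Across the set, a sustained stay at 50% or more of the maximum began most often at 2139. As a median over the 150 genes, the kernel mean was 13.4% of a gene's maximum at 1223, 21% at 1508, 25.7% at 1759, 32.9% at 1881, 40.8% at 2007 and 71.5% at 2139. Only 16 genes stood at 50% or more of their maximum at 1223, against 53 at 2007 and 135 at 2139. The first sampling point at or above 50% was 2139 for 64 genes and 2007 for 20. A sustained stay at or above 50% began at 2139 in 81 genes and at 2007 in 25. From 2007 to 2139 the mean rose by a median factor of 1.75 and was higher at 2139 in 141 genes. The libraries used at 2139, K33, K34 and K35, had 10.9%, 58.1% and 28.1% of their counts in contig-named features. K32, also labelled 2139 but left out, had 0.508% in them. Its summed share of the 150 genes was 1.13%, below the 1.96% to 3.05% of the libraries at 2007. In 81 genes every library at 2284 and 2377 exceeded every kernel library used from 1223 to 2007.

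The early kernel divided the genes. At 1223, 66 genes were under 10% of their maximum, 28 of them under 1%, and 21 had a mean under 1 CPM. By contrast, 24 genes were higher at 1223 than at any point from 1357 to 1881, and 58 were higher at 1223 than at 1657. A level that never fell from 1223 through 2139 was seen in 8 genes. The median ratio of the maximum to the mean at 1223 was 6.78. These values are in plain CPM and were not recomputed under the scaling given below. The 10 most abundant genes took 12.8% of the PvKer counts at 1223 and 44.2% at 1657, which lowers the CPM of other genes at 1657.

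These shares depend in part on what else was in the library. The 10 most abundant genes of each kernel group took 12.8% of the PvKer counts at 1223, 46.1% at 1759 and 11.9% at 2377, and CPM, being a share, is lowered for all other genes where that part is large. Scaling by trimmed mean of M values (TMM), which reduces the weight of such genes, gave kernel factors of 0.543 to 1.05. After it, the median share of a gene's maximum was 10.4% at 1223, 34.5% at 1759, 41.8% at 2007 and 67.2% at 2139. Under this scaling 142 genes still had their maximum at 2284 or 2377 and 8 had it earlier, and all 150 remained at least 5 times every hull and shell mean. The order of the last points was not stable, since 84 genes then peaked at 2284 and 58 at 2377.

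**Figure D2:**
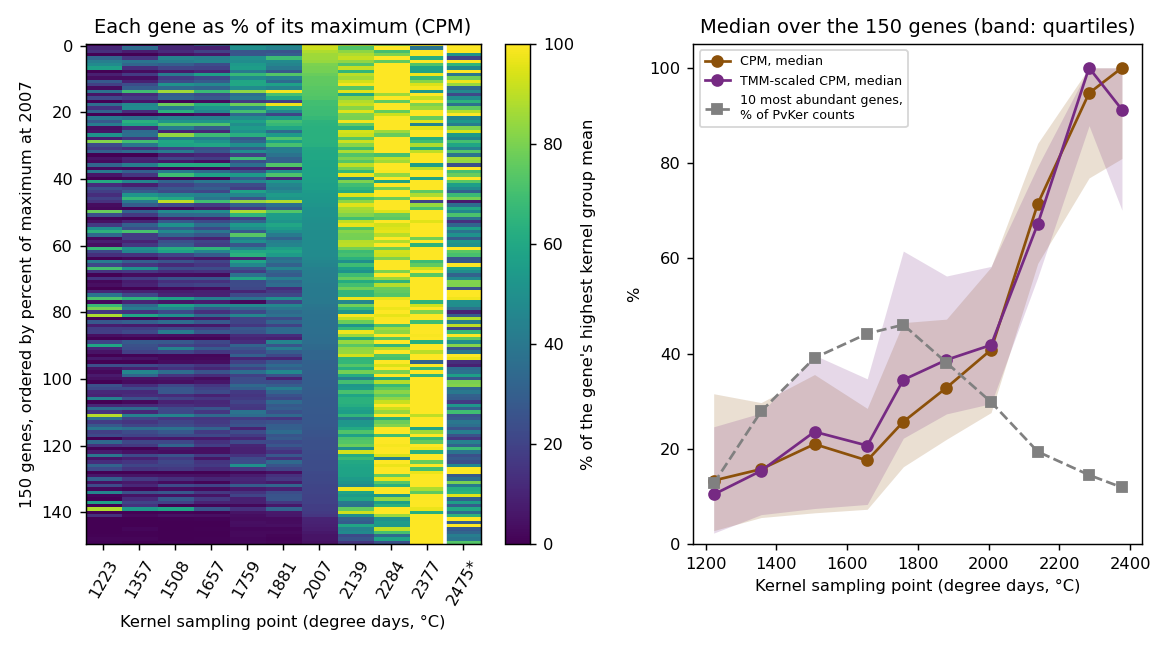
Left, kernel means of each of the 150 genes (rows) at 10 sampling points (columns, degree days in °C) as a percentage of the gene's highest mean, ordered by the value at 2007; the column marked 2475* holds the libraries left out of the selection, with values above 100% drawn as 100%. Right, median (points) and quartiles (bands) of the same percentages for plain CPM and TMM-scaled CPM, and the share of PvKer counts taken by the 10 most abundant genes (squares); the plain median rises from 40.8% at 2007 to 71.5% at 2139 while that share falls from its highest value of 46.1% at 1759.

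Outside the kernel the genes were low. The median and lower quartile of the gene means were 1.69 and 0.299 CPM at hull 2377 and 4.20 and 1.18 CPM at shell 2139. The values that follow use the highest of a gene's hull and shell means. The ratio of the kernel maximum to the highest hull or shell mean ran from 5.04 to 627 with a median of 12.7. It was from 5 to below 10 in 66 genes, from 10 to below 50 in 52 and at least 50 in 32. The highest ratio, 627, was that of PvKer.09.g213750, with 300.0 CPM at kernel 2377 and 0.479 CPM in the highest shell group. The highest hull or shell mean was under 1 CPM in 7 genes and at least 10 CPM in 85. It lay in shell for 101 genes and in hull for 49, and for 59 of them it lay at shell 1759.

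That shell group was carried by the library S29, whose summed share was 0.444% against 0.110% in S30 and 0.177% in S31. S29 exceeded both of the others in 130 of the 150 genes. Without S29, shell 1759 held the highest hull or shell mean of 13 genes. Transcripts that mark the kernel were also raised in it. A sum over 10 other genes, chosen for a kernel mean of at least 100 times the hull mean, was 10909 CPM in S29, 890 in S30 and 4324 in S31, or 3.05%, 0.249% and 1.21% of the 357538 CPM in kernel 1759. For the 150 genes, the median level in S29 was 24.9% of that in kernel 1759, against 5.05% in S30 and 10.5% in S31. The part of kernel RNA in the shell values was not tested.

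The next values describe how the genes moved within the kernel before and at their maximum. The selection used these kernel libraries and required each of the earlier means to lie below the late maximum, which favours a rise on the way, and low counts were filtered over the whole kernel fit, so that the late level alone let a gene pass. The counts of calls up to 2377 are therefore a description of the chosen genes, the shares over all genes are printed beside them for scale, nothing is read from the gap, and no p-value is given for a gene. The first comparison lay in the young kernel, far from the maximum. Libraries at 1508 and 1657 were set against those at 1223 and 1357, with 6 on each side, by edgeR's quasi-likelihood test with Benjamini-Hochberg adjustment over all genes tested, and calls needed both an adjusted p under 0.05 and a change of 1 or more on the log2 scale in either direction. All 150 genes passed the filter. Of the 150 genes, 62 (41.3%) were called higher at 1508 and 1657, against 10.1% of all 17248 genes tested, and 2 (1.33%) were called lower, against 10.6%. The median log2 fold change was 0.91 over the 150 genes and 0.00 over all genes. Without TMM the medians were 0.21 and -0.43, so the size of the rise depends on the scaling.

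PvKer.10.g248880 and PvKer.10.g249710 had the largest rises among the genes called. PvKer.10.g248880 had 1.52 to 10.4 CPM at 1508 and 1657 (median 4), where the earlier libraries had at most 0.210 CPM (median 0). The sums were 227 counts against 3, a ratio per PvKer count of 83.6 with a 95% counting interval of 28.3 to 409. For PvKer.10.g249710 the range was 12.9 to 30.5 CPM (median 22.5) against 0 to 10.7 CPM (median 0.510), a log2 fold change of 5.07 ± 0.470 (SE). In both genes the 6 later libraries all lay above the 6 earlier ones.

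The 2 genes called lower were PvKer.05.g131340 and PvKer.03.g071950. PvKer.05.g131340 had 4.21 to 5.31 CPM (median 4.61) at 1508 and 1657 and 5.71 to 22.8 CPM (median 13.6) at 1223 and 1357, with no overlap and a log2 fold change of -1.13 ± 0.235 (SE). PvKer.03.g071950 went from 0.794 to 2.28 CPM (median 1.54) early to 0 to 0.640 CPM (median 0.309), which rests on 75 and 16 counts. Its log2 fold change was -1.75 ± 0.608 (SE), and the call was lost with the left-out libraries included and without K13, K15, K1 or K11. Later it reached 97.0 and 107 CPM at 2377. The count of 2 lower calls became 5 without K18, 4 without K3 or K10, and 1 without K1 or K11.

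The second comparison took the filling kernel, with 1759 and 1881 against 1508 and 1657 (6 libraries on each side; the latter are shared with the first comparison). Here 62 genes (41.3%) were called higher, against 4.74% of all genes tested, and 0 were called lower, against 4.25%. At an unadjusted p under 0.05, 108 were higher and 2 lower, against 16.7% and 15.8% of all genes tested, and DESeq2 also called 0 lower. Over the 150 genes the median log2 fold change was 0.80, against 0.00 over all genes, and without TMM the medians were 0.68 and -0.08.

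The largest rises were those of PvKer.02.g038530 and PvKer.09.g230550. PvKer.02.g038530 had 0.735 to 2.17 CPM (median 1.21) against 0 to 0.253 CPM (median 0), with 1 count-bearing library among the 6 earlier ones. The sums were 73 counts against 2, a ratio of 27 with a counting interval of 7.21 to 227. PvKer.09.g230550 had 4.34 to 7.36 CPM (median 6.54) against 0 to 1.68 CPM (median 0.223), a log2 fold change of 4.35 ± 0.452 (SE). Neither gene overlapped between the groups.

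The third comparison covered the last points before the maximum, with 2007 and 2139 against 1759 and 1881 (6 libraries on each side; the latter are shared with the second comparison). Of the 150 genes, 35 (23.3%) were called higher, against 4.15% of all genes tested, and 0 were called lower, against 5.89%. At an unadjusted p under 0.05, 83 were higher and 6 lower, against 16.6% and 17.5% of all genes tested, and DESeq2 also called 0 lower. The set had a median log2 fold change of 0.50, against -0.04 over all genes, and without TMM the medians were 0.86 and 0.30.

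PvKer.07.g170220 and PvKer.05.g125000 led the calls. PvKer.07.g170220 had 50.7 to 419 CPM (median 138) at 2007 and 2139 against 5.66 to 33.7 CPM (median 14.4), a log2 fold change of 3.31 ± 0.426 (SE), and the groups did not overlap. PvKer.05.g125000 had 4.86 to 118 CPM (median 36.9) against 1.11 to 6.28 CPM (median 3.63), with the lowest later library inside the earlier range, and a log2 fold change of 3.03 ± 0.429 (SE).

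Over the first 3 comparisons, 12 genes were called higher in each, 36 in 2 of them, 51 in 1 and 51 in none. Over all genes tested the shares were 0.145%, 1.68%, 15.2% and 83%. In the third comparison and in neither of the others, 6 of the 150 genes were called, against 3.37% of all genes. The comparisons share libraries with each other and with the selection, so the gap to all genes is not a result.

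**Figure D3:**
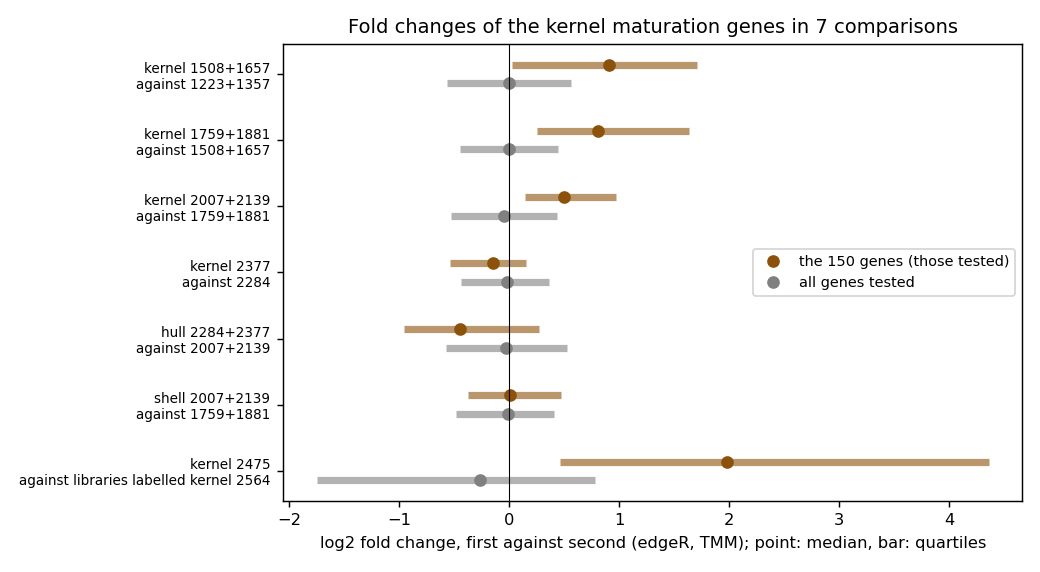
Median (points) and quartiles (bars) of the log2 fold change (x axis, edgeR with TMM) for the 150 genes, as far as tested, and for all genes tested, in 7 comparisons (y axis). The medians of the 150 genes are 0.91, 0.80 and 0.50 in the first 3 kernel comparisons and -0.45 in hull. The first 4 comparisons use kernel libraries that chose the genes and are a description. The hull and shell comparisons use libraries whose means the selection capped.

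Few of the genes were called between 2284 and 2377, the points at which the selection placed the maximum, so that a difference between them is in part built in. With 2 libraries at 2377 and 3 at 2284, 6 genes (4%) were called lower at 2377, against 0.412% of all genes tested, and 0 were called higher, against 0.151%. At an unadjusted p under 0.05, 24 were lower and 2 higher, against 7.5% and 5.68% of all genes tested, and DESeq2 also called 0 higher. The median log2 fold change was -0.15, against -0.02 over all genes. Its sign depends on the scaling, since without TMM the medians were 0.08 and 0.18. The 6 lower calls became 1 without K41, 2 without K43 or K39, and 1 with the left-out K38.2 and K44 included. In the plain means, the genes with their maximum at 2284 had a median of 75.8% of it at 2377, and those with their maximum at 2377 had a median of 79.9% of it at 2284.

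The largest falls were in PvKer.04.g109480 and PvKer.05.g127840. PvKer.04.g109480 had 473 and 314 CPM at 2377 and 1918, 2000 and 1986 CPM at 2284, a log2 fold change of -2.55 ± 0.329 (SE), after being high since 1508. PvKer.05.g127840 had 349 and 527 CPM at 2377 and 1191, 1766 and 1151 CPM at 2284. Its log2 fold change was -1.87 ± 0.403 (SE), and the call was lost without K41, K43 or K39 and with the left-out libraries included. In neither gene did the points overlap, and the libraries labelled 2475 had 128 to 172 CPM and 164 to 203 CPM. K38.2, labelled 2284 and as rich in contig-named counts as those, also had low values, 864 CPM of PvKer.04.g109480 and 622 CPM of PvKer.05.g127840, and K44 (labelled 2377) had 238 and 455 CPM.

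The libraries labelled 2475 took no part in the selection and carry the next label after the maximum. The set took 3.53%, 3.77% and 4.04% of their PvKer counts, above every kernel library used up to 2007 and below all those at 2284 and 2377. The median gene stood at 49.4% of its maximum, with 73 genes at 50% or more, 18 above the maximum and 3 under 10%. The median was 48.8% for the genes with their maximum at 2284 and 51.3% for those with it at 2377. In 92 genes the mean was still at least 5 times every hull and shell mean. These libraries held 304704 to 530385 PvKer counts, with 69.4% to 87.1% of all counts in contig-named features. In K38.2, with 84.3% of its counts in these features, the median gene was at 50.7% of the mean of the other libraries labelled 2284. In K44, with 69.6%, it was at 69.5% of the mean of the others labelled 2377. Those percentages are of a group mean, whereas the 49.4% is of each gene's maximum. The part of these features in the lower levels was not tested, and a fall after 2377 is not read from these libraries.

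The same 3 libraries were set against K6, K7 and K8, labelled kernel 2564, and neither side was used to choose the genes. The latter had the genes near their level at 1223, which the selection required to lie below the late maximum. That favours higher calls in the libraries labelled 2475, and low counts were again filtered over a fit with the late kernel. The counts of calls are therefore a description, and nothing is read from the gap to all genes. Of the 150 genes, 97 (64.7%) were called higher in the libraries labelled 2475, against 14.5% of the 17667 genes tested, and 4 (2.67%) were called lower, against 18.4%. The median log2 fold change was 1.98, against -0.26 over all genes. In 109 genes all 3 libraries labelled 2475 exceeded all 3 labelled 2564, as did 16.7% of the genes tested. The lower calls became 7 without K6. No change after 2475 is read from this, because the libraries labelled 2564 had the set at 1.06%, 1.09% and 1.18%, near the 0.989% to 1.06% at 1223.

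PvKer.07.g170220 and PvKer.12.g292810 differed most. PvKer.07.g170220 had 725, 660 and 571 CPM against 0.0964, 0.126 and 0 CPM, or 867 counts against 2, a ratio of 9011 with a counting interval of 2487 to 74527. PvKer.12.g292810 had 168, 194 and 141 CPM against 0, 0.126 and 0 CPM, or 218 counts against 1, a ratio of 4532 with an interval of 805 to 179799. Both means exceeded those at 2284 and 2377, where the libraries had 261 to 629 CPM and 47.9 to 137 CPM. Of the genes called lower, PvKer.04.g109480 had 128, 138 and 172 CPM against 419, 502 and 567 CPM, a log2 fold change of -1.77 ± 0.282 (edgeR, adjusted p 4.79e-06). PvKer.06.g150020 had 5.99, 26.3 and 20.7 CPM against 67.6, 53.8 and 46.1 CPM, a log2 fold change of -1.72 ± 0.365 (edgeR, adjusted p 2.78e-04), which rests on 22 counts in the libraries labelled 2475.

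**Figure D4:**
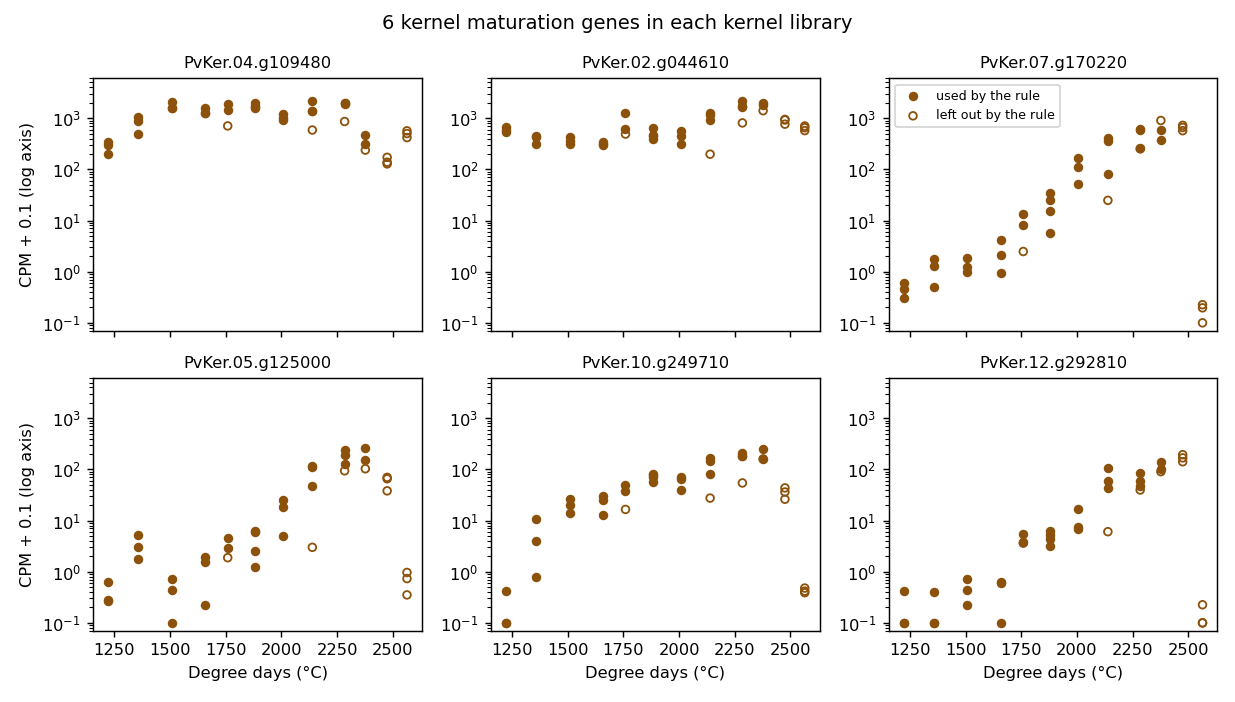
Level of 6 of the genes in each kernel library (y axis, CPM + 0.1, log scale) against the labelled sampling point (x axis, degree days in °C); filled points were used to select the genes and open points were left out. PvKer.04.g109480 is near 2000 CPM at 2284 and at 473 and 314 CPM at 2377, and PvKer.07.g170220 rises from under 1 CPM at 1223 to 725 CPM in a library labelled 2475.

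The libraries K38.2 and K44, left out of their groups, carried the same genes at lower levels. In K38.2 (labelled 2284, 202455 PvKer counts) 148 of the 150 genes had a count, the median gene was at 50.7% of the mean of the other libraries at 2284, and 141 exceeded every hull and shell mean. In K44 (labelled 2377, 631221 PvKer counts) all 150 had a count, the median was 69.5%, and all 150 exceeded every hull and shell mean.

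In hull, the comparison asked whether the genes moved there at the sampling points of the kernel maximum. Hull libraries at 2284 and 2377 were set against those at 2007 and 2139, with 6 on each side. The selection used these libraries and capped their means, but it did not use direction in time. The counts of calls are therefore a description of the chosen genes, and nothing is read from the gap to all genes. The p-values for hull genes below are for genes chosen in part on these libraries. A filter on low counts left 121 of the 150 genes, and 29 were too low to test. Of the 121, 26 (21.5%) were called lower at the later points, against 10.4% of the 18924 genes tested, and 5 (4.13%) were called higher, against 11.2%. Among those tested the median log2 fold change was -0.45, against -0.03 over all genes tested. The summed share went from 0.178% ± 0.00867 (n = 3) at 2007 and 0.193% ± 0.0128 (n = 3) at 2139 to 0.125% ± 0.00382 (n = 3) at 2284 and 0.120% ± 0.0147 (n = 3) at 2377. The higher calls became 3 without H47. The highest sum of the 10 kernel transcripts in a hull library of the series was 1034 CPM, in H34 (labelled 1881). H34 took no part in this comparison. These transcripts were chosen against the hull mean, so a low sum in hull was built in.

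PvKer.14.g340850 and PvKer.12.g280510 had the largest falls in hull. PvKer.14.g340850 had 0 to 1.21 CPM (median 0.557) at the later points and 1.09 to 12.2 CPM (median 3.44) at the earlier ones, a slight overlap, with a log2 fold change of -3.52 ± 0.467 (edgeR, adjusted p 9.81e-08). The same gene had 1109 to 1967 CPM in the kernel libraries of 2284 and 2377. PvKer.12.g280510 had 0 to 0.930 CPM (median 0.396) against 0.583 to 4.85 CPM (median 3.37), also overlapping, with a log2 fold change of -3.11 ± 0.581 (edgeR, adjusted p 2.97e-05).

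PvKer.12.g282990 and PvKer.06.g153950 were called higher in hull. PvKer.12.g282990 had 16.7 to 61.1 CPM (median 46.1) against 9.93 to 22 CPM (median 15.0), with the highest values in the 3 libraries at 2377 (60.6, 61.1 and 60.3 CPM) and a log2 fold change of 1.34 ± 0.155 (edgeR, adjusted p 6.30e-09). PvKer.06.g153950 had 7.78 to 54.9 CPM (median 12.5) against 2.62 to 14.4 CPM (median 9.81), a log2 fold change of 1.19 ± 0.315 (edgeR, adjusted p 0.00175). It overlapped widely and its spread was largest at 2377, with 34.8, 12 and 54.9 CPM.

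In shell, the last sampling points were 2007 and 2139, which were set against 1759 and 1881 with 7 libraries against 6. As in hull, the selection used these libraries and capped their means without using direction in time. The counts of calls are again a description, nothing is read from the gap to all genes, and the p-values are for genes chosen in part on these libraries. Of 138 genes tested, with 12 too low to test, 3 (2.17%) were called higher, against 5.19% of the 18762 genes tested, and 0 were called lower, against 7.81%. At an unadjusted p under 0.05, 30 were higher and 8 lower, against 23.6% and 23.6% of all genes tested, and DESeq2 also called 0 lower. The median log2 fold change was 0.01, against -0.01 over all genes tested, and without TMM it was -0.08 against 0.01. The counts moved with single libraries. The higher calls became 8 without S29 or S41 and 5 without S39 or S42. The lower calls became 16 without S39, 2 without S30 and 1 without S42. S39 had the highest summed share of its group, 0.231% against 0.176% and 0.178%, and 2923 CPM of the 10 kernel transcripts against 656 and 691 CPM.

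PvKer.10.g249710 and PvKer.03.g071950 led the 3 calls. PvKer.10.g249710 had 0.918 to 3.44 CPM (median 2.65) against 0.269 to 1.66 CPM (median 0.571), a log2 fold change of 1.70 ± 0.424 (edgeR, adjusted p 0.00263). PvKer.03.g071950 had 1.5 to 5.90 CPM (median 4.28) against 0.240 to 2.81 CPM (median 1.18), a log2 fold change of 1.57 ± 0.447 (edgeR, adjusted p 0.00682). The groups overlapped in both genes, and the levels were far below the 162 to 253 CPM and 97.0 to 107 CPM of the kernel at 2377.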

How the data were processed

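Reads were 150 bp and paired, per the labels' protocols, and Trimmomatic 0.39 and Bowtie2 2.3.4.1 are named in the submitters' processing notes. How reads were assigned to genes, on which build and strand and with which rule for multiple hits, is not given in the sources used here, and genes with close copies or overlapping neighbours are therefore uncertain. The authors deposited a table of raw counts per gene, of which 0 columns went unused, with 37063 PvKer genes and 1252 contig-named features. The latter were left out of library sizes and tests. Hull libraries held 8288104 to 18161330 counts in all, shell libraries 8456109 to 16774688 and kernel libraries 1287392 to 23798180. Intervals cover counting error only.

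Groups came from the labelled tissue and sampling point. CPM was computed over PvKer genes. Tests used edgeR 4.0.16 in R 4.3.3 (TMM, filterByExpr by group, quasi-likelihood F test, Benjamini-Hochberg over all genes tested), fitted per tissue with a mean per group, and 7 comparisons were made. The 4 between kernel points up to 2377 use libraries that also chose the genes and are given as description, without p-values for genes. The hull and shell comparisons also use libraries of the selection, which capped their means but did not use direction in time. Their adjusted p-values are for genes chosen in part on those libraries. The kernel fit held 29 libraries and the hull and shell fits 44 and 34. DESeq2 1.42.0, another scaling, no filter, all features, all libraries, no minimum fold change and leaving out each library were tried as alternatives. The code was checked on simulated counts. The genes named are the 2 with the highest kernel mean, those at the cut, and in each comparison at most 2 called higher and 2 called lower with the largest log2 fold change and at least 1 CPM on the higher side. Genes at the limits of the ratio and of 2000 CPM, the highest ratio and neighbouring identifiers were named after their values were seen. The genes, the lists and the comparisons were chosen with earlier results of these data known. No list by function could be tested, and no sequence is shown.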

Additional observations from a re-analysis of the deposited data

Results flagged for a closer look

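In hull 1759, H32 had the lowest summed share of the 150 genes, 0.104%, far from the 0.121% to 0.123% of the 3 others. H32 also had 931 CPM of the 10 kernel transcripts. In kernel 2284, PvKer.04.g109480 had 864 CPM in K38.2 against 1918 to 2000 CPM in the other libraries. The search for a library far from the others of its group covered 14 combinations of a group and a measure, and chance marks about 1 in 20.

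The libraries K38.2 and K44, used in no comparison, held the genes at a summed 2.82% and 3.94% of their PvKer counts. These shares were below those of the libraries used from the same groups, 5.07% to 5.60% at 2284 and 4.85% to 5.32% at 2377. Hull and shell libraries, where the selection required low means, had 0.103% to 0.444%.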

How the results depend on the processing

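The counts of calls were recomputed under every alternative, and 214 of the values stayed within 1.5 times the count given in the report while 34 moved further. With no minimum fold change, the kernel at 1508 and 1657 had 7 lower calls, at 1759 and 1881 it had 2 lower, and at 2007 and 2139 it had 63 higher and 1 lower. The same setting gave 9 higher and 50 lower in hull, 21 higher and 3 lower in shell, and 8 lower in the libraries labelled 2475. In the first comparison the lower calls were 4 by DESeq2, 1 with all libraries and 5 without libraries above 20% contig-named counts, a setting chosen after seeing the data. With all libraries, 1 gene was called lower in the second comparison and 1 between 2284 and 2377. With no filter on low counts, 2 genes were called higher between 2284 and 2377. In shell, 8 genes were called higher without S29, also chosen after seeing the data. The causes were not tested.

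Leaving out each library in turn gave 57 to 68 higher and 1 to 5 lower calls in the first comparison, 53 to 67 and 0 to 0 in the second, and 29 to 40 and 0 to 0 in the third. Between 2284 and 2377 it gave 0 to 0 higher and 1 to 9 lower. It gave 3 to 7 higher and 22 to 29 lower in hull, 2 to 8 and 0 to 16 in shell, and 88 to 97 and 4 to 7 in the libraries labelled 2475.

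The selection itself depends on scaling. On TMM-scaled CPM 261 genes met the conditions and 98 of the 150 kept were shared with the set described. The shared number was 110 with all libraries, 129 with CPM over all features, 149 without S29 and 130 without K34. The median summed share at 2284 and 2377 was 5.32%, 5.07% with K38.2 and K44, and 5.15% of all features. Of 334 values recomputed for the 20 results on named genes, 325 kept direction and side of the threshold, 9 in 2 results lost the call, and 0 reversed.

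No paired analysis was possible because the titles are serial numbers and replicate numbers were given in accession order, so they pair nothing. The low depth of K34, K38.2, K44 and the libraries labelled 2475 limits the low genes there.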

Other observations

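The 150 genes were spread over the number blocks of the identifiers. The blocks with the most were 1 with 22 genes, 2 with 17 and 7 with 14. As a share of the genes with a kernel maximum of at least 20 CPM, the blocks held from 0.903% to 2.60%. Whether a block is a chromosome is not stated in the sources used here.

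Few of the genes had neighbouring identifiers, with 4 pairs next to each other in the table and 6 pairs within 3 rows. PvKer.01.g022740 and PvKer.01.g022750 reached 525 and 1140 CPM, and their log2 levels correlated at r 0.968 over the 39 kernel libraries. PvKer.07.g170210 and PvKer.07.g170220 reached 1245 and 497 CPM, with r 0.930. PvKer.06.g150020 and PvKer.06.g150030 reached 60.3 and 130 CPM, with r 0.449. The libraries share sampling points and depth, and close copies may share reads, so these values are a description.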
